A study of Mus musculus with 2 samples.

Results

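Innate sensing and interferon genes were taken from the mouse annotation as every protein-coding gene whose symbol begins with Tlr, Irf, Stat, Ifit, Oas or Ifnar followed by a digit (or, for Oas, by the letter l, and for Irf by a single digit only). This gave 47 of 21800 protein-coding genes. They were described in the left cerebral cortex of adult male B6CASTF1/J mice aged 18 to 20 months, a first-generation cross of C57BL/6 with CAST, an inbred strain of wild origin. Chromatin accessibility was measured by DNase-seq, in which DNase I cuts open DNA in isolated nuclei and the cut ends are sequenced, in 2 libraries of a single group. The labels number the libraries as biological replicates 1 and 2 with separate tissue samples but list the same donor entry for both, so the spread between them may be technical. The study holds no second condition, and nothing below is a test. Each value stands beside the same value over all protein-coding genes.

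Toll-like receptors (TLRs) recognise microbial molecules at the cell surface or, for a group of them, nucleic acids inside endosomes. Their signals reach interferon regulatory factors (IRFs) and NF-kB, which switch on type I interferon genes. Interferon is then bound by the paired receptor chains IFNAR1 and IFNAR2, whose Janus kinases activate STAT factors. These join IRF9 in a complex that binds the interferon-stimulated response element, a DNA motif in front of antiviral effector genes such as the Ifit and Oas families. In the brain, microglia are a main site of TLR expression, and neurons and glia carry IFNAR.

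For each library the authors deposited a shorter and a longer list of peaks, regions with many cuts, each with a signal whose scaling is not stated. A promoter was called open when a peak of the shorter list lay within 1 kb of a transcription start site (TSS) of the gene. The shorter lists held 73221 peaks in replicate 1 and 111105 in replicate 2, and the longer lists held 120015 and 178564. These numbers do not measure sequencing depth, and read totals were not used here. Excitatory neuron markers were open at 6 of 6 genes in both libraries, microglia markers at 4 of 8 in both (among them Sall1, Aif1 and Trem2, but not Cx3cr1, P2ry12, Tmem119 and Csf1r, of which Cx3cr1 and Csf1r had a peak in the longer list of replicate 2 only) and blood leukocyte markers at 0 of 7, with none in the longer lists either. Inhibitory neuron markers were open at 1 of 4 genes in both libraries, and oligodendrocyte markers at 3 of 5 in both. Astrocyte markers were open at 3 and 4 of 5 genes in replicates 1 and 2, and endothelium markers at 1 and 0 of 4. In whole tissue, a weak peak in many cells and a strong peak in few cells cannot be told apart.

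The interferon receptor chains and the transcription factors of the pathway were mostly open in aged cortex, and the Ifit and Oas effector genes mostly were not. Of the 47 genes, 22 had an open promoter in replicate 1 and 22 in replicate 2 (46.8% in each), against 60.7% and 61.2% of all protein-coding genes. Open in both libraries were 20 genes, against 58.7% of all genes. Tlr2 and Irf7 were open in replicate 1 only, Tlr5 and Ifit3b in replicate 2 only, and 23 genes in neither. In the longer lists 26 genes in replicate 1 and 30 in replicate 2 had a promoter peak, against 65.0% and 66.0% of all genes, and 25 had one in both, against 63.3%. The receptor chains, STATs and IRFs were open at 14 of 18 genes in replicate 1 and 13 of 18 in replicate 2. The Ifit and Oas effectors were open at 3 and 4 of 17 genes in the same libraries. CpG content of the promoters, described below, differed between these groups: 2 of the 18 receptor chains and factors and 13 of the 17 effectors fell in the low class.

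**Figure D1:**
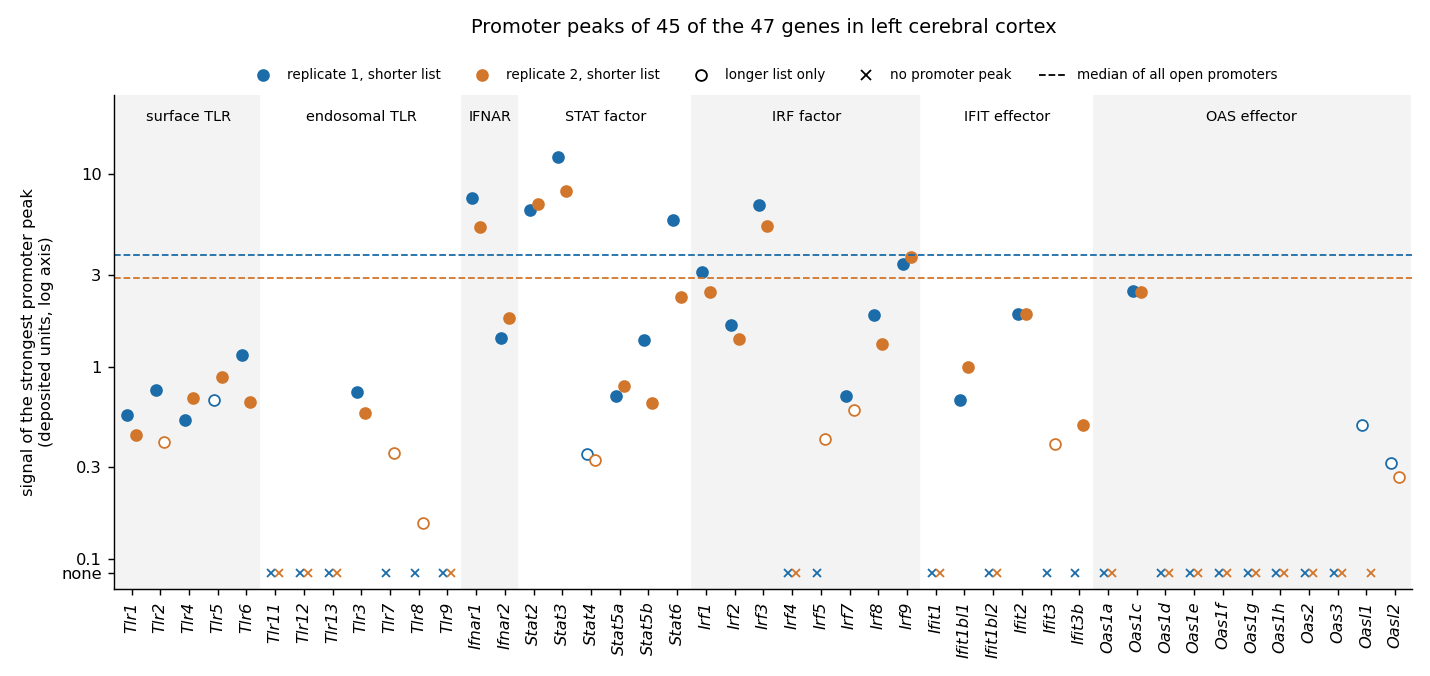
The signal of the strongest promoter peak (deposited units, log axis) is plotted for 45 of the 47 genes in replicate 1 (blue) and replicate 2 (orange), with open circles for peaks of the longer list only and crosses where no list held one. Dashed lines mark the medians over all open promoters, 3.82 in replicate 1 and 2.88 in replicate 2. Stat3 stands highest, the TLR genes with peaks lie between 0.440 and 1.15 in the shorter lists, and 10 of 11 Oas genes have no filled circle.

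Where these promoters were open, most of their peaks lay below the median of all genes. The strongest promoter peak of the open genes had a median signal of 1.75 in replicate 1 and 1.54 in replicate 2, against 3.82 and 2.88 over all open promoters. The range was 0.528 to 12.3 in replicate 1 and 0.440 to 8.24 in replicate 2.

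The promoters of these genes were poorer in CpG than others, and within the low and middle classes of CpG content the share of open ones lay nearer to that of all genes. CpG content, as the observed over expected number of CpG dinucleotides within 500 bp of the most upstream TSS, had a median of 0.32 over the 47 genes, against 0.57 over all genes. When all genes were split into 3 equal classes (up to 0.32, up to 0.72 and above), 23 of the 47 fell in the low class, 19 in the middle and 5 in the high class. In the low class 17.4% in replicate 1 and 21.7% in replicate 2 were open, against 12.3% and 15.0% of all low-class genes. In the middle class the shares were 73.7% and 68.4%, against 74.3% and 74.5% of all middle-class genes. In the high class 4 of 5 were open in both libraries, against 95.4% and 94.1% of all high-class genes. By role, the low-class effectors were open at 1 of 13 genes in replicate 1 and 2 of 13 in replicate 2, and the middle-class ones at 2 of 4 in both. The middle-class receptor chains and factors were open at 9 and 8 of 11. The low-class TLR genes were open at 2 of 8 in both libraries, and the middle-class ones at 3 of 4. The part of CpG content in the difference between the roles was not tested. The high-class gene with no open promoter was Irf5, a factor downstream of TLRs, which had a peak of signal 0.420 at an internal start, 2.6 kb inside the gene, in the longer list of replicate 2 only.

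**Figure D2:**
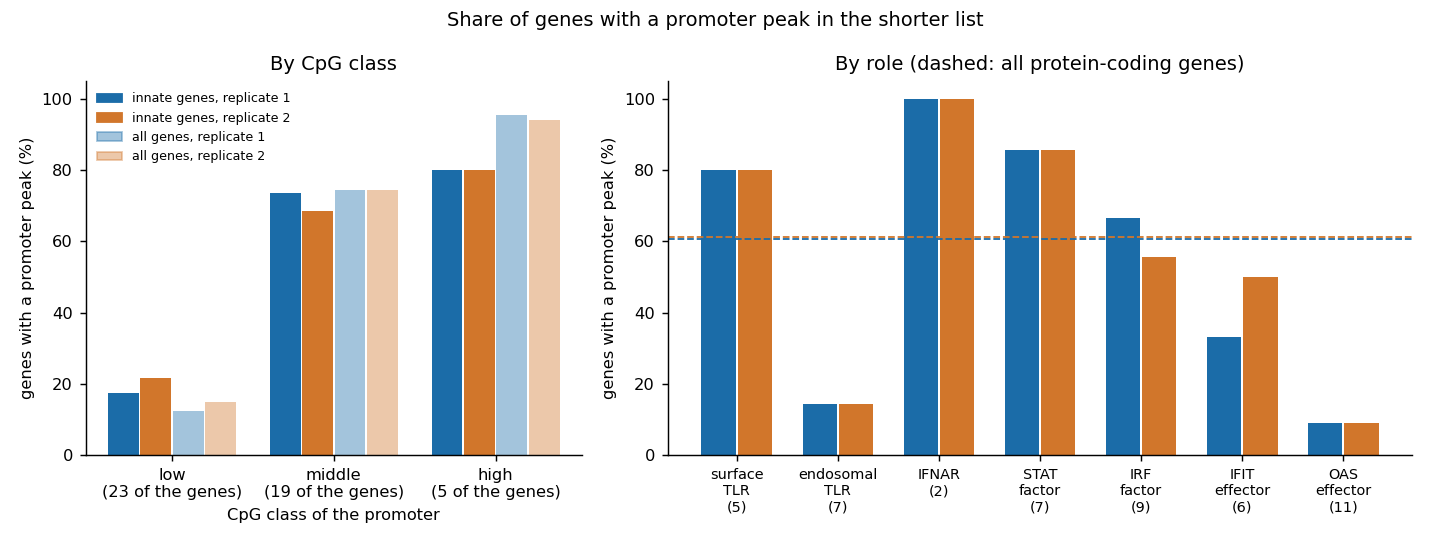
Left, the share of genes with a promoter peak in the shorter list (%) by CpG class, for the innate genes (full colour) and all protein-coding genes (pale) in each library; right, the same share by role, with dashed lines at 60.7% and 61.2% for all genes and the number of genes in brackets. The shares by class lie near those of all genes in the low and middle classes, while the shares by role run from 9.09% of Oas genes to 100% of the 2 IFNAR genes.

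Surface TLRs were open at 4 of 5 genes in each library, against 60.7% and 61.2% of all genes, and their peaks were weak. Open in both libraries were 3 of the 5, against 58.7% of all genes. Tlr4, the receptor for bacterial lipopolysaccharide, had a promoter signal of 0.528 in replicate 1 and 0.687 in replicate 2 (0.608 ± 0.113, SD, n = 2) in a peak over its start. Tlr6 had 1.15 and 0.654, and Tlr1 had 0.561 and 0.440; both proteins pair with TLR2 to recognise bacterial lipopeptides. All 3 lay below the medians of all open promoters in both libraries. Tlr2 itself had a peak of 0.759 in the shorter list of replicate 1 and of 0.407 in the longer list of replicate 2, at overlapping positions about 0.3 kb inside the gene. Tlr5, the flagellin receptor, had the reverse pattern, with 0.881 in the shorter list of replicate 2 and 0.673 in the longer list of replicate 1. The Tlr5 peak lay at a second, internal start, 17.6 kb in replicate 2 and 17.7 kb in replicate 1 from the most upstream one, and with the most upstream start alone Tlr5 was not open. Each of these 5 genes had a peak near an annotated start in the longer lists of both libraries, against 63.3% of all genes.

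Endosomal TLRs were open at 1 of 7 genes in both libraries (14.3%), against 60.7% and 61.2% of all genes. Of the 7 genes, 6 fell in the low CpG class, in which 12.3% and 15.0% of all genes were open. Tlr7, Tlr8 and Tlr13 lie on chromosome X, which male mice carry in 1 copy. The part of CpG content or of copy number in these values was not tested. The open gene was Tlr3, the receptor for double-stranded RNA, with signals of 0.739 in replicate 1 and 0.574 in replicate 2 (0.656 ± 0.117, SD, n = 2) in a peak over its start. Tlr7 and Tlr8, receptors for single-stranded RNA, had promoter peaks in the longer list of replicate 2 only, at 0.354 and 0.153. Tlr9, the receptor for unmethylated CpG DNA, and Tlr11, Tlr12 and Tlr13 had no promoter peak in any of the 4 lists and no base with a listed false discovery rate within 1 kb of a start.

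Both interferon receptor chains were open. Ifnar1 had a promoter signal of 7.57 in replicate 1 and 5.31 in replicate 2 (6.44 ± 1.60, SD, n = 2), at percentiles 90.4 and 79.8 of all open promoters. Its peak was centred 0.2 kb upstream of the start. Ifnar2 was weaker, at 1.41 and 1.80, at percentiles 16.2 and 31.1. The ranges of the 2 chains did not overlap.

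Among the 7 STAT genes, 6 were open in both libraries, and their signals ran from 0.706 to 12.3 in replicate 1 and from 0.647 to 8.24 in replicate 2. Stat3, the main factor of interleukin-6 signalling and of reactive astrocytes, had the strongest promoter peak of the 47 genes in both libraries. Its signal was 12.3 in replicate 1 and 8.24 in replicate 2 (10.3 ± 2.89, SD, n = 2), at percentiles 99.7 and 95.4 of all open promoters. The peak was centred just upstream of the start, at chr11:100939601-100939800 in replicate 1 and chr11:100939441-100939820 in replicate 2 (mm10). Stat2 had 6.56 and 6.99 (6.78 ± 0.303, SD, n = 2), so the 2 libraries were close together here.

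Stat6, the factor of interleukin-4 signalling, had 5.81 in replicate 1 and 2.30 in replicate 2 (4.05 ± 2.49, SD, n = 2). Its strongest peak was centred 1.0 kb upstream of the start, so that only its edge lay inside the 1 kb window, and with a 500 bp window Stat6 was not open in replicate 1. Stat5b had 1.37 in replicate 1, in a peak centred 0.6 kb upstream of a start, and 0.647 in replicate 2, in another peak. The replicate 1 peak that overlapped the latter had 1.11. Stat5a had 0.706 and 0.794. Stat5a and Stat5b, genes of closely related proteins, lie next to each other on chromosome 11. Stat4, which acts in lymphocyte interleukin-12 signalling, had promoter peaks only in the longer lists, at 0.350 in replicate 1 and 0.327 in replicate 2, near an internal start and 21.5 kb inside the gene.

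Among the 9 IRF genes, 6 were open in replicate 1 and 5 in replicate 2. Irf3, the factor activated directly by the sensing kinases, had 6.89 and 5.40 (6.14 ± 1.05, SD, n = 2). The peak over its start also lay within 1 kb of a start of Bcl2l12 and cannot be assigned to either gene alone. Irf9, the DNA-binding partner of STAT2, had 3.41 in replicate 1 and 3.72 in replicate 2 (3.56 ± 0.216, SD, n = 2). Irf1 had 3.09 and 2.44, and Irf8, a factor of microglia and other myeloid cells, had 1.85 and 1.31. Irf2 had 1.64 and 1.39. Irf7, the factor that amplifies interferon production, had a peak of 0.706 in the shorter list of replicate 1 and of 0.594 in the longer list of replicate 2, and no footprint in either library. Irf4, best known from lymphocytes, had no promoter peak in any list.

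The promoter stretches of Irf1 and Irf2 are shown because they hold sites for the pathway's own factors inside an open region. Sequences are from the RefSeq promoter table (GRCm38.p6, the assembly of mm10) and are written 5′ to 3′ on the strand of the gene. Each ends upstream of the start. The letters here and below are those of the reference assembly, and the CAST alleles of these mice may differ. Capitals mark matches, on either strand, to TTCNNNGAA, the gamma-activated site bound by STATs, to GAAANNGAA, the core of the interferon-stimulated response element bound by IRFs and by the complex of STATs with IRF9, and to GGAANNGAA, an ETS-IRF composite. At Irf2 the match to the composite overlaps the match to the response element core.
Irf1 (chr11:53769884-53769963, plus strand): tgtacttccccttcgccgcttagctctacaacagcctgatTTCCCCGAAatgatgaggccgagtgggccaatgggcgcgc
Irf2 (chr8:46739495-46739574, plus strand): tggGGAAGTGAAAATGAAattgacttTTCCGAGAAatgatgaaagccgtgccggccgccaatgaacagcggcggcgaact
The gamma-activated site of Irf1 began 90 bases upstream of the start and lay in the peak of both libraries. A footprint, a short stretch protected from cutting, covered 7 of its 9 bases in replicate 2 and none overlapped it in replicate 1. The response element core of Irf2 lay in the peak of both libraries, and footprints shared 3 of its 9 bases in each. A match describes letters and does not show which factor was bound.

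The Oas genes belong to the family of 2′-5′-oligoadenylate synthetases, which respond to double-stranded RNA, and were open at 1 of 11 genes. Which of the 11 encode an active enzyme is not addressed here. The open gene was Oas1c, with promoter signals of 2.48 in replicate 1 and 2.44 in replicate 2 (2.46 ± 0.0272, SD, n = 2), in a peak over its start at chr5:120812481-120812660 and chr5:120812461-120812660. In the 211 kb that hold Oas1c and 8 other Oas genes (Oas1a, Oas1d to Oas1h, Oas2 and Oas3), this was the strongest of 8 peaks in replicate 1 and of 11 in replicate 2. The neighbouring run of Oas1f, Oas1h, Oas1g, Oas1a and Oas1d, 74.3 kb long, held 1 peak of signal 0.772 in replicate 1 and 2 peaks of 0.434 and 0.500 in replicate 2. Oasl2 had promoter peaks only in the longer lists, at 0.317 and 0.267, and Oasl1 had one of 0.495 in the longer list of replicate 1. The other 8 Oas genes had no promoter peak in any of the 4 lists.

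Stretches upstream of 4 Oas genes are shown because the open and the closed ones hold the same element. Capitals mark response element core matches, GAAANNGAA on either strand, which overlap in pairs.
Oas1c (chr5:120812585-120812664, minus strand): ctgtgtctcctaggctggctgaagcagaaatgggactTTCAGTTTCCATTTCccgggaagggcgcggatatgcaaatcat
Oas1a (chr5:120907526-120907615, minus strand): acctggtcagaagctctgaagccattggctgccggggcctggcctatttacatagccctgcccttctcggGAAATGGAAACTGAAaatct
Oas1g (chr5:120887614-120887703, minus strand): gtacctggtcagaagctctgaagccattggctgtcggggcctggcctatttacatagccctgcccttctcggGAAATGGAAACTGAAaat
Oas3 (chr5:120777670-120777749, minus strand): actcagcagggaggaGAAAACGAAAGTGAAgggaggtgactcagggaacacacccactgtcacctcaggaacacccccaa
The capitals of Oas1a and Oas1g are the same 15 bases, GAAATGGAAACTGAA, and those of Oas1c are their reverse complement, TTCAGTTTCCATTTC. Among 20121 promoter entries of protein-coding genes, 7 entries of 5 genes held this run on either strand, namely Oas1a, Oas1c, Oas1g, Apol9a and Apol9b. At Oas1c it lay 99 to 113 bases upstream of the start and inside the peak of both libraries. At Oas1a and Oas1g, where it lay within 20 bases of the start, no list of either library had a promoter peak. Footprints overlapped the Oas1c run in both libraries. In replicate 1 a footprint of 8 bases shared 6 bases with the first core match by coordinate and 5 with the second, and another footprint shared 2 bases with the second. In replicate 2 a footprint of 7 bases shared 1 base with the second match. Oas1a and Oas1g are near copies, with a common run of 56 bases in the stretches shown. Of the 31-base words within 1 kb of a start, 28.9% for Oas1a and 29.6% for Oas1g occur again in the genome, against 5.83% for Oas1c. For Oas1e and Oas1d, also without a promoter peak, the shares were 33.4% and 28.5%. No source used here says how the authors treated reads that match several places.

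The Ifit genes encode proteins that bind foreign RNA and block its translation. They form a cluster of 6 genes on chromosome 19 and were open at 2 genes in replicate 1 and 3 in replicate 2. Ifit2 had a promoter signal of 1.88 in both libraries (1.88 ± 0.00101, SD, n = 2) in a peak over its start. Ifit1bl1 had 0.673 and 0.994, in a peak 0.8 kb from a second, internal start and 3.4 kb (replicate 1) and 3.5 kb (replicate 2) inside the gene. Ifit1bl1 was not open in either library with a 500 bp window or with the most upstream start alone. Ifit3b had 0.500 in replicate 2 only, about 0.4 kb upstream of the start. Ifit3 had 0.394 in the longer list of replicate 2 only. Ifit1 and Ifit1bl2, which start back to back, had no promoter peak in any list.

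Stretches of Ifit1, Ifit3 and Ifit2 are shown to set 2 promoters with response element cores and no peak in the shorter lists beside an open one without such a core. Capitals mark GAAANNGAA on either strand.
Ifit1 (chr19:34640749-34640828, plus strand): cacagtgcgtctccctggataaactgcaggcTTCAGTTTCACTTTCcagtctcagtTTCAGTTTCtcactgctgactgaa
Ifit3 (chr19:34583359-34583438, plus strand): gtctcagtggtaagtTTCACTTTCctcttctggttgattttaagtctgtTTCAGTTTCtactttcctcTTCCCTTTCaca
Ifit2 (chr19:34550574-34550653, plus strand): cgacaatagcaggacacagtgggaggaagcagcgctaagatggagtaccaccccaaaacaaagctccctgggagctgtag
Each of the first 2 holds 3 matches, and the same 80 bases as at Ifit3 stand upstream of Ifit3b (chr19:34607755-34607834). Of the 31-base words within 1 kb of the start, 63.9% for Ifit3 and 64.6% for Ifit3b occur again in the genome, so their values cannot be told apart with certainty. The matches of Ifit1 are also those of Ifit1bl2. Ifit2, the Ifit gene with the strongest promoter peak, had no match in its window of 250 bases before to 50 after the start, which says only that these letters are not there.

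**Figure D3:**
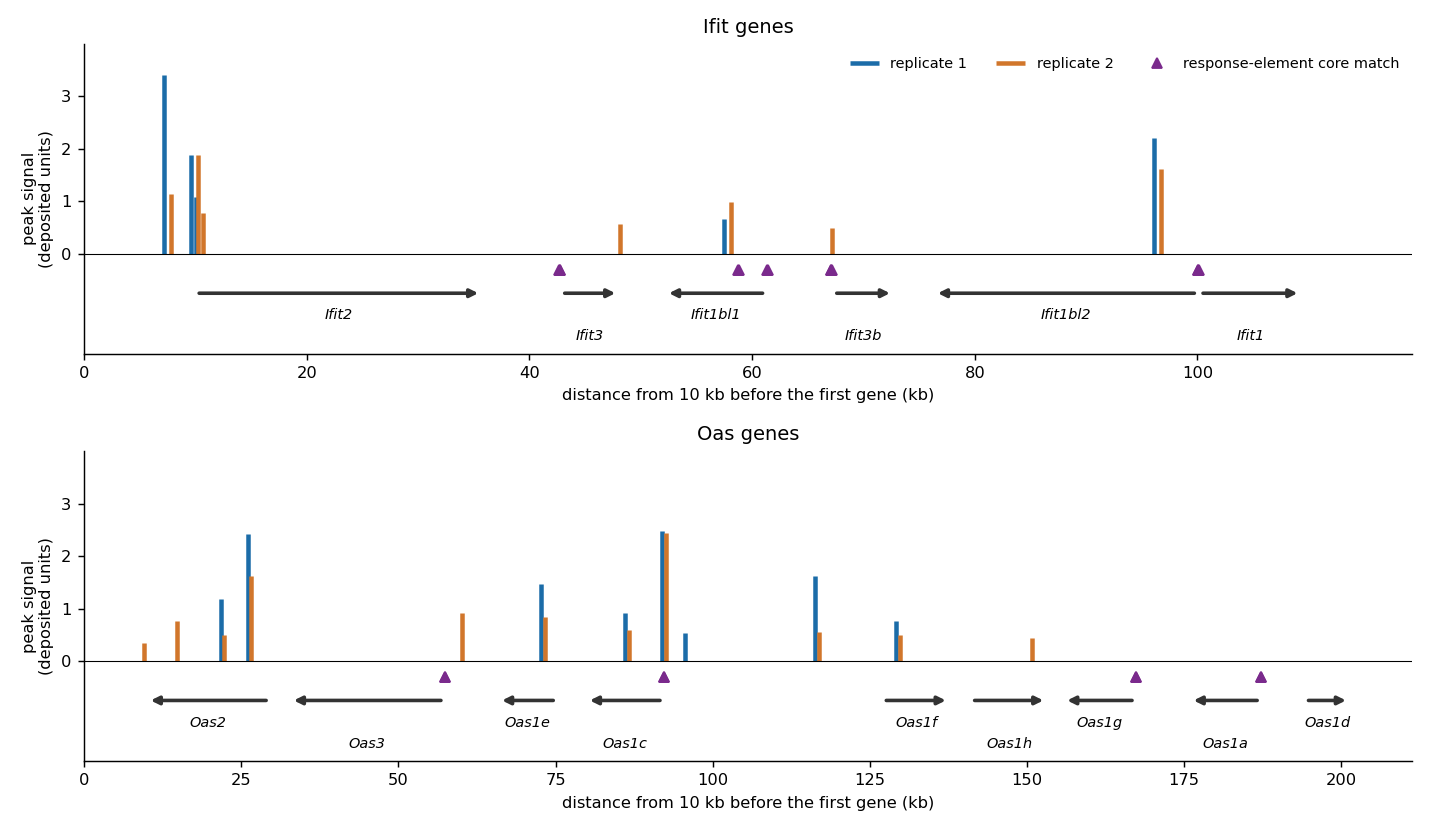
Peaks of the shorter lists are drawn as lines whose height is their signal (deposited units) along the Ifit cluster and the Oas clusters of chromosome 5, against the distance in kb from 10 kb before the first gene, with replicate 1 (blue) drawn slightly left of replicate 2 (orange). Arrows show genes and their direction, and triangles show response element core matches in promoters. Triangles at Ifit3, Ifit1, Oas3, Oas1g and Oas1a have no line above them, and the triangle at Oas1c stands under the highest lines of its panel.

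Over all roles, response element cores were more frequent in these promoters than in those of all genes, and in both sets most lay outside peaks. RefSeq promoters (250 bases before to 50 after the start) matched 40 of the 47 genes, in 51 entries. Of these entries 31.4% held GAAANNGAA on either strand, against 8.21% of 20121 entries over all genes. The matches fell in 15 genes and at 28 distinct places, since neighbouring genes share some. They stood at 5 of 6 Ifit genes, 4 of 8 Oas genes with a promoter sequence (Oas1a, Oas1c, Oas1g and Oas3), 1 of 4 surface TLRs (Tlr6), 2 of 6 endosomal TLRs (Tlr8 and Tlr11), 2 of 6 STAT genes (Stat2 and Stat4) and 1 of 8 IRF genes (Irf2). Only at Oas1c and Irf2 did a match overlap a peak in any of the 4 lists, which is 3 of the 28 places (10.7%), against 28.8% of 1704 places over all genes. In the shorter lists the share was 10.7% in both libraries, against 17.8% in replicate 1 and 22.8% in replicate 2 over all genes. Copies of the same stretch, as at Ifit3 and Ifit3b, count as separate places. By gene the share was 2 of 15 (13.3%) in any list and in each shorter list. Over the 1580 genes with a match it was 30.1% in any list. In the shorter lists it was 19.5% in replicate 1 and 24.3% in replicate 2. Within 500 bp on each side of the TSS, 42.6% of the 47 genes held a match, against 24.9% of all genes. The gamma-activated site TTCNNNGAA stood in 19.6% of the entries, against 7.73% of all entries, and in the wider windows in 25.5%, against 24.4% of all genes. None of these shares was split by CpG content, which had a median of 0.32 over the 47 genes and 0.57 over all genes. The part of base composition in them was not tested.

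Stat2 shows how close such a site can lie to a listed peak without being in it. Its stretch is given for that reason, with the response element core in capitals.
Stat2 (chr10:128270248-128270327, plus strand): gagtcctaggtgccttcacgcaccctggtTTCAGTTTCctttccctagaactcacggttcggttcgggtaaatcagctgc
The match ended at base 128270285 of chromosome 10, while the Stat2 peak began at 128270361 in replicate 1 and 128270341 in replicate 2. The peak was 240 bp wide in replicate 1 and 220 bp in replicate 2. Within 1 kb of the start, 659 and 732 bases had a false discovery rate of at most 0.001, so such bases ran beyond the peak. Whether the match lay among them was not looked up.

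Inside the open regions, the interferon-linked motifs were held by few peaks. Of the 32 distinct promoter peaks of these genes in replicate 1 and the 34 in replicate 2, 6.25% and 8.82% held a response element core, against 3.35% and 5.11% of all promoter peaks. These were 2 and 3 peaks, at Oas1c, Irf2 and, in replicate 2, Stat6. The gamma-activated site was held by 15.6% and 14.7% of the peaks, against 3.91% and 5.33% of all promoter peaks. These were 5 peaks in each library, at Tlr6, Irf1, Irf2, Irf8 and Irf9. GAGGAAG, a sequence bound by PU.1, the master factor of microglia and other myeloid cells, was held by 21.9% and 20.6%, against 9.84% and 11.5% of all promoter peaks. It stood in peaks of Tlr1, Tlr3 and Tlr4 among the TLRs, and of Irf2, Irf9 and Ifit2 in both libraries, and in a peak of Ifit1bl1 in replicate 2. GGGCGG, the Sp/KLF site of CpG-rich promoters, was held by 46.9% and 29.4%, against 54.5% and 49.9%.

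Footprints were found at a few more genes than open promoters, which stood at 22 of the 47 in each library. Single bases at a false discovery rate of at most 0.001 were found at more genes in replicate 2 only. Over all genes, open promoters stood at 60.7% in replicate 1 and 61.2% in replicate 2, below the shares of both measures. A footprint lay within 1 kb of a start at 24 of the 47 genes in replicate 1 and 27 in replicate 2, against 63.4% and 63.8% of all genes. A base with a false discovery rate of at most 0.001, by the authors' values, was found at 22 and 24 genes, against 61.2% and 62.1% of all genes. Some genes without an open promoter had weaker listed bases. The lowest value was 0.0041 in replicate 1 and 0.012 in replicate 2 at Stat4, and 0.018 and 0.0071 at Oasl2. Irf5 reached 0.0011, Tlr8 0.0015 and Ifit3 0.0069, each in replicate 2 only. Of the Oas genes, Oas1c, Oasl1 and Oasl2 had a listed base and the other 8 had none.

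Distal peaks (over 1 kb away from any TSS in the annotation, and in the gene or within 10 kb of it) were about as dense around these genes as around others. The median density was 1.63 per 100 kb in replicate 1 and 3.27 in replicate 2, against 1.73 and 3.18 over all protein-coding genes. Counted once each, there were 38 distal peaks in replicate 1 and 72 in replicate 2. Of these 35 in each library overlapped a peak of the other library, which is 92.1% and 48.6%, against 86.9% and 49.1% of all distal peaks. Their median signal was 1.27 in replicate 1 and 0.907 in replicate 2, against 1.12 and 0.827 over all distal peaks. No distal peak was found around 23 genes in replicate 1 (48.9%) and 13 in replicate 2 (27.7%), against 41.7% and 32.5% of all genes.

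**Figure D4:**
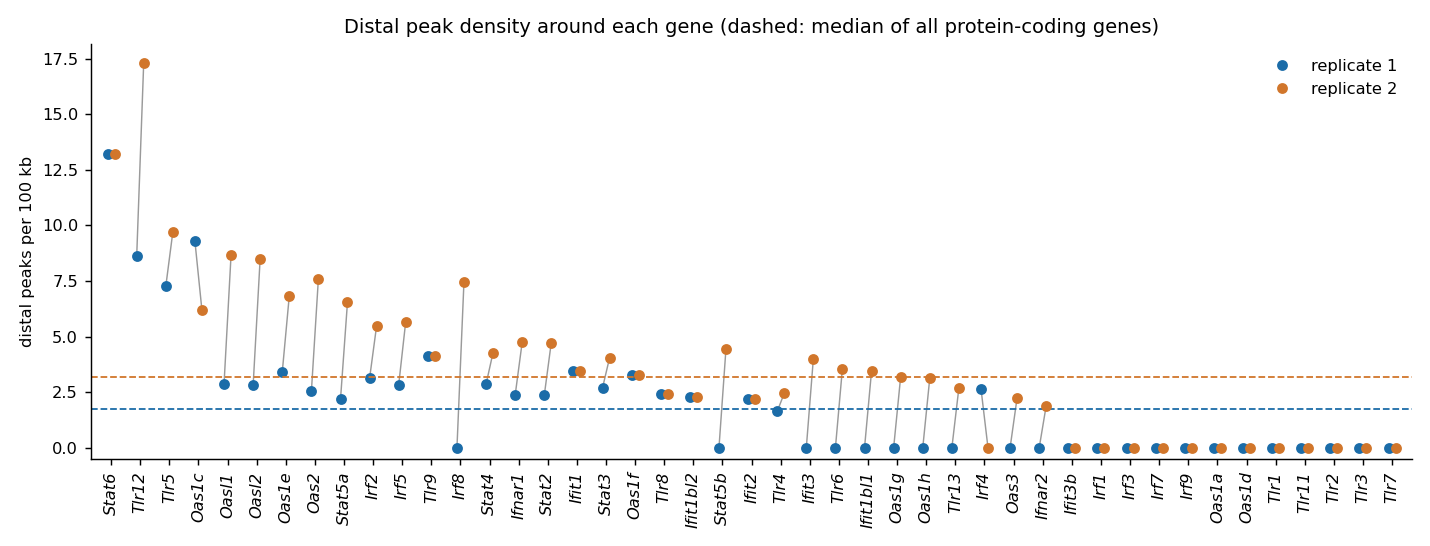
The number of distal peaks per 100 kb, over the gene and the 10 kb flanking it, is shown for the same 45 genes in replicate 1 (blue) and replicate 2 (orange), sorted by the mean, with dashed lines at the medians of all protein-coding genes (1.73 and 3.18). Stat6, Tlr12 and Tlr5 have the highest means, and most genes have more distal peaks in replicate 2, whose list is longer.

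The densest surroundings belonged to Stat6 and Tlr12, but every one of the peaks there stood nearer to a start of another gene (Nab2 or Nemp1 for Stat6, and Zscan20 for Tlr12). Stat6 had 5 distal peaks in each library (13.2 ± 0 per 100 kb, SD, n = 2), the strongest at 3.36 in replicate 1 and 2.06 in replicate 2 within Nemp1, where the nearest coding start is that of Nemp1. Tlr12 had 2 and 4 (12.9 ± 6.10 per 100 kb), the strongest in Zscan20. Tlr5 had 3 and 4 (8.48 ± 1.71 per 100 kb), and its own start was the nearest coding start to the 3 strongest. These had signals of 4.94, 4.06 and 2.73 in replicate 1 and, at the same places, 2.82, 1.98 and 3.38 in replicate 2. All 6 values exceeded the promoter signal of Tlr5 (0.881 at most). Among the next by mean density were Oas1c at 7.73 ± 2.19, Oasl1 at 5.77 ± 4.08, Oasl2 at 5.67 ± 4.01 and Oas1e at 5.12 ± 2.41 per 100 kb, from counts of 1 to 3 peaks.

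Several closed or weakly open genes had a stronger peak nearby than at the promoter. Stat4 had a peak inside the gene, 4.0 kb upstream of its internal start, with signals of 3.75 in replicate 1 and 1.84 in replicate 2, against 0.350 and 0.327 at the promoter in the longer lists. Tlr4 had one inside the annotated gene, 96.2 kb from its start, at 2.30 and 1.96. Irf5 had one 9.3 kb upstream at 2.44 and 1.15, and Ifit1bl2, closed in every list, one inside the gene at 2.20 and 1.61. All of these were found in both libraries and were higher in replicate 1.

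Among the open genes, Stat3 had a peak inside the gene at 4.51 in replicate 1 and 2.75 in replicate 2, below its promoter in both. This peak stood nearer to a start of Stat5a (33.1 kb) than to one of Stat3. A peak beyond the end of Ifnar1 had 4.58 and 2.36. Ifit2 had a peak 2.5 kb upstream of its start at 3.40 in replicate 1, above its promoter signal, and at 1.15 in replicate 2, below it. Irf2 went the other way, with a peak inside the gene of 1.38 in replicate 1 and 3.12 in replicate 2.

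Other genes of the same pathway, taken from a list ordered by role, were open at 40 of 67 annotated genes in replicate 1 (59.7%) and 46 in replicate 2 (68.7%), against 60.7% and 61.2% of all protein-coding genes. NF-kB and its regulators were open at 9 of 9 genes in both libraries. The strongest were Chuk, a kinase that frees NF-kB, at 6.73 in replicate 1 and 4.50 in replicate 2, and Tnfaip3, an inhibitor of the pathway, at 6.16 and 4.74. TLR adaptors and kinases were open at 11 and 12 of 15, with the highest means at Irak2 (6.35 and 3.36) and Tbk1 (4.87 and 2.91). In replicate 2 alone Myd88, the adaptor of most TLRs, was highest at 6.60, against 0.779 in replicate 1, and Irak4, a kinase below it, had 3.64. Interferon receptors and Janus kinases were open at 7 and 6 of 8, with Jak1 at 6.72 and 5.67 and Ifngr1 at 4.19 and 4.80. Feedback genes were open at 4 of 5, with Pias1 at 7.15 and 4.96 and Socs3, a STAT3 inhibitor, at 7.07 and 3.22.

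Cytosolic sensors and adaptors were open at 2 of 8 genes in replicate 1 and 4 of 8 in replicate 2. Mavs, the mitochondrial adaptor of RNA sensors, had 4.23 and 4.10, and Eif2ak2, an RNA-dependent kinase, had 1.05 and 0.874. The RNA sensors Ddx58 (0.454) and Ifih1 (0.514) were open in replicate 2 only, but had peaks of 0.488 and 0.732 in the longer list of replicate 1. Interferon genes were open at 0 of 8 in replicate 1 and 2 of 8 in replicate 2, Ifnb1 at 0.374 and Ifng at 0.641. With a 500 bp window, and with equal numbers of strongest peaks in both libraries, neither had a promoter peak. Ifng had 0.409 in the longer list of replicate 1. Other interferon-stimulated effectors were open at 7 and 9 of 14, led by Adar (5.69 and 4.36) and Samhd1 (4.13 and 2.88). Open in 1 library only were also Traf3 (0.934), Ifngr2 (0.801), Isg20 (0.667) and Ifi35 (0.500), all in replicate 2, and Il10rb (0.976) and Jak3 (1.34), both in replicate 1. In the other library's longer list Traf3 had 1.14, Ifngr2 0.746, Isg20 0.534 and Jak3 0.807.

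Over all genes, the difference in promoter signal between the libraries varied with GC content. Among 22 promoter peaks of these genes that overlapped one to one between the libraries, 16 were higher in replicate 1. The median difference was 0.35 on the log2 scale (replicate 1 minus replicate 2), against 0.29 over 16488 such pairs of all genes. Over all pairs it was -0.20 at under 50% GC and 0.59 at 70% or more. The 4 pairs of these genes under 50% GC had a median of 0.42, with Tlr6 at 0.82, Tlr1 at 0.35 and Ifit1bl1 at -0.56. Within a factor of 2 were 21 of the 22 pairs, against 93.8% of all pairs, and the exception was Stat6 at 1.34. The part of base composition in the difference between the libraries was not tested.

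**Figure D5:**
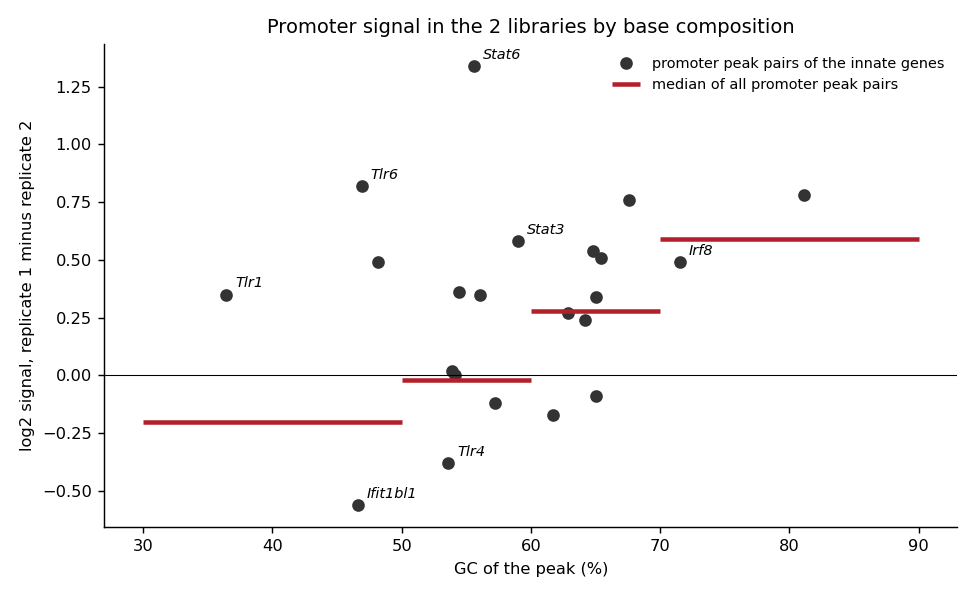
The log2 signal of replicate 1 minus that of replicate 2 is plotted for the 22 one-to-one promoter peak pairs of the innate genes against the GC content of the peak (%). Red bars give the median of all promoter peak pairs in each GC range, from -0.20 under 50% to 0.59 at 70% or more, and Stat6 stands highest at 1.34.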

How the data were processed

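DNase-seq libraries of left cerebral cortex (1 group, 2 libraries) were used as deposited. Per the deposited notes, the authors called peaks and footprints in each library separately from its own alignments on mm10. No source used here names the aligner, the callers, their versions or thresholds. The deposited peak signal is 1 value per peak, with no stated scaling, and serves to describe and rank peaks. The deposited per-base values are q-values (false discovery rates), listed up to 0.05. The deposited footprint lists were used for positions only.

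Starts are those of protein-coding transcripts in the basic annotation of GENCODE M21. An overlap of at least 1 bp counted. CpG content, GC content and 31-base words were read from GRCm38.p6, and promoter sequences from the RefSeq promoter table of the same build, on both strands for 9 motifs. Peaks are not separated by parental allele. Overlap counts used pandas 2.3.3, numpy 2.4.6 and pysam 0.24.0 under python 3.11.15, and were tested on simulated data. The members, the pathway and marker lists, the motifs and the alternatives were chosen with earlier results of these data known. Of 69 pathway entries, 67 had an annotated gene (all but Mb21d1 and Mx2). Genes were named by a fixed rule: members with a promoter peak in a shorter list, the 8 members with the highest distal density and, of the pathway genes, the 2 with the highest mean promoter signal per role and those in 1 library only. A few genes that the lists or this rule include are not reported here. Peaks, sequences and other values singled out beyond it were chosen after their values were seen. With 1 group no test was made, and read totals were not used here, so no counting interval is given.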

Additional observations from a re-analysis of the deposited data

How the results depend on the processing

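Values here are means of the 2 libraries, and 45 alternatives were tried. Of these, 39 stayed within 1.5 times (counts) or within the spread between the libraries (levels, or for motif shares the exact binomial interval). For levels, leaving out 1 of 2 libraries stays within that spread by construction and says nothing about stability. The number of members with a promoter peak (22.0) ran from 19.5 with equal numbers of strongest peaks in both libraries to 28.0 with the longer lists. It was 22.0 to 22.0 with a library left out. For pathway genes (43.0) the range was 38.5 to 51.0 in the same 2 settings, and 40.0 to 46.0 with a library left out. The share of all genes was 60.9%, and 58.9% and 65.5% in these 2 settings. All 20 genes open in both libraries stayed so when their peaks had to overlap, also by at least 50% of both. Over all genes the share was 58.7%, with 58.3% when peaks had to overlap and 54.0% at 50% of both. The median promoter signal of members (1.64, against 3.35 for all genes) moved to 1.24 (against 2.48) with the mean over a gene's peaks and to 1.11 (against 3.09) with the longer lists, and was 1.54 to 1.75 with a library left out. The median distal density (2.45 per 100 kb, against 2.45) moved to 4.41 (against 4.23) with the longer lists. It was 1.63 to 3.27 with a library left out, and 1.63 and 1.89 in replicates 1 and 2 with equal numbers of strongest peaks. Counts of genes with a footprint (25.5) or a low false discovery rate base (23.0) were 24.0 to 27.0 and 22.0 to 24.0 with a library left out. Over all genes the shares were 63.6% and 61.6%. In wider windows the shares with the ETS-IRF, NF-kB and PU.1 motifs rose to 21.3%, 23.4% and 42.6% of members, against 23.8%, 16.8% and 34.8% of all genes, since a wider window holds more letters. No paired analysis was possible because there is a single group. Keeping equal numbers of strongest peaks drops weak peaks of replicate 2 by construction: Tlr1, Tlr3, Tlr6, Stat5b and Ifit3b lost theirs there, as did Ddx58, Ifi35, Ifih1, Ifnb1, Ifng, Isg20, Ly96, Rsad2 and Ticam2 of the pathway list. Depth cannot be assessed, as read totals were not used here.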
